A study of Mus musculus with 2 samples.

Results

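Nuclei of neurons that carry transcript of Sim1 were compared between a pool labelled Q153R and a pool labelled KD, which was matched to mice with another altered allele of the same gene, the homeobox gene Otp. The nuclei were taken from 1 droplet library of the paraventricular hypothalamus (PVH), in which hashtag antibodies marked 3 pools. A barcode was kept if it held at least 500 genes, exactly 1 positive hashtag and at least 1 UMI of Sim1. This rule left 2068 of 6173 barcodes, of which 1169 were labelled Q153R and 899 were labelled KD. The remaining pool, labelled Ctrl, held 1180 such nuclei and is given beside them. All 17 mice were 4 weeks old and carried Sim1-Cre together with a GFP reporter of the nuclear envelope, written Sun1-GFP or Sun-GFP in the labels, and GFP-positive nuclei were sorted. The 6 mice behind Q153R were Sim1-Cre; Sun1-GFP; Otp Q153R/+, the 7 mice behind Ctrl were Sim1-Cre; Sun1-GFP with no Otp alteration, and the 4 mice matched to KD were Sim1-Cre; Sun-GFP; Otp fl/+. The match of KD to the floxed allele rests on elimination alone, since no label spells the name out. Cre under Sim1 control limits recombination of the floxed allele and the reporter to cells that have expressed Sim1. Mice within a pool could not be told apart, so each side is 1 sample. No test was made, and every interval below is a 95% interval that covers counting error only. If the match of KD holds, both sides of the main comparison carry an altered Otp allele, and only Ctrl does not.

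Otp encodes a homeodomain factor needed during development for the neuroendocrine neurons of the PVH and neighbouring hypothalamus. Sim1, a bHLH-PAS factor, is required for the same neurons and works with its partner Arnt2 upstream of Pou3f2. PVH neurons release oxytocin and vasopressin from the posterior pituitary, act on the anterior pituitary through Crh, Trh and Sst, and restrain feeding through the melanocortin receptor Mc4r.

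Summed over each pool, the nuclei looked like glutamatergic Sim1 neurons. Levels are CPM, the UMIs of a gene summed over the nuclei of a pool, divided by all gene UMIs of those nuclei and multiplied by 1e6. Slc17a6, which loads glutamate into vesicles, stood at 147, 153.2 and 132 CPM in Ctrl, KD and Q153R, in that order, which is the order used throughout. Gad2, a GABA-synthesising enzyme, stood at 43.1, 30.3 and 35.9 CPM. A UMI of Gad1, Gad2 or Slc32a1 occurred in 13.9%, 13.5% and 11.8% of nuclei. When the Sim1 nuclei of all pools were clustered, Gad2 was highest in cluster 0, at 128 CPM beside 143 CPM of Slc17a6. The pools differed in ways other than the Otp allele. The KD nuclei were deeper, with a median of 6506 UMIs against 5022 in Q153R. The mix of sexes differed as well. Xist, the RNA that coats the silent X, reached 3 UMIs with no UMI from the Y in 84.0% of KD nuclei and 47.0% of Q153R nuclei, here called Xist nuclei, and 3.34% and 29.6% held 2 or more UMIs from the Y. Glial UMIs occurred in 37.8% of KD nuclei and 33.5% of Q153R nuclei, and 14.02% and 8.47% were marked as likely doublets. Mitochondrially encoded transcripts summed to 138, 100.3 and 145 CPM. The pool labels therefore cannot be told apart from the mix of sexes or the depth, and values within the Xist nuclei or within clusters of similar nuclei are given beside the results named below.

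Otp itself was higher in Q153R than in KD. Its level was 57.9, 93.9 and 123 CPM, from 586 UMIs in KD and 779 in Q153R, a ratio of Q153R over KD of 1.31 (1.18–1.46). The order Ctrl, KD, Q153R held with no overlap of the counting intervals. With each nucleus thinned to 2000 UMIs, an Otp UMI was seen in 10.9%, 16.0% and 19.1% of nuclei, and without thinning in 27.9%, 39.2% and 42.3%. Otp was higher in Q153R in 15 of 16 clusters of the Sim1 nuclei. By ratio, the widest gaps lay in cluster 9, at 66.3 CPM in KD against 156 CPM in Q153R, and in cluster 0, where Crh was highest, at 47.4 against 109 CPM. By difference in CPM the Oxt cluster 15 was widest, at 114 against 225 CPM. Cluster 13 was level, at 151.7 and 153.4 CPM. The Xist nuclei gave a wider ratio of 1.52, from levels of 97.47 and 148 CPM. Nuclei with Y-linked UMIs stood at 51.6 CPM in the 30 nuclei of KD and 91.4 CPM in the 346 of Q153R. When the called tag had to reach 3 times its threshold and the other tags had to lie far below theirs, only 89 KD and 102 Q153R nuclei were left, and the Otp ratio was 0.999. A level of Otp above Ctrl goes against the label KD if it is read as a loss of transcript. The floxed part of the gene is not given in the sources used here, so the count of Otp UMIs does not check how much intact transcript was made.

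Wdr41, the next gene with at least 50 UMIs beyond Otp, showed the widest difference among genes spread over many nuclei in the direction of KD. Otp lies on chromosome 13 from 94875602 to 94885130 and Wdr41 from 94976344 to 95023314 (GRCm38, plus strand), so that Wdr41 begins 91214 bp past the end of Otp. Wdr41 encodes a WD-repeat protein that partners C9orf72 in lysosome-related trafficking. Its level was 50.6, 297 and 77.1 CPM, so Q153R stood close to Ctrl and far below KD. The ratio of Q153R over KD was 0.26 (0.23–0.29), which is 3.85 times higher in KD. Wdr41 was lower in Q153R in 16 of 16 clusters, with ratios from 0.16 in the Avp cluster 5 to 0.61 in cluster 10. At equal depth, 41.6% of KD nuclei held a Wdr41 UMI, against 14.8% of Q153R and 9.02% of Ctrl nuclei. Nuclei with at least 5 Wdr41 UMIs numbered 104 of 899 in KD and 2 of 1169 in Q153R. The nuclei with 1 tag but no Sim1 UMI showed a smaller gap, at 117 and 65.2 CPM in KD and Q153R, with Q153R over KD at 0.56 (0.44–0.70).

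The difference around Otp was limited to a short stretch of the 2 Mb on each side. Of 23 genes there with at least 50 UMIs, Otp included, 3 were lower in Q153R past 1.5-fold, beside 2.05% of all genes with that minimum. They were Wdr41 and a pair of transcripts that lie at it. Gm48350, antisense to Wdr41, stood at 3.71, 8.50 and 3.48 CPM, and Gm48420, near its far end, at 3.44, 10.9 and 3.48 CPM. Both had few UMIs. Whether the counting used strand is not given in the sources used here, so reads of Gm48350 cannot be told apart from those of Wdr41, while Gm48420 lies beyond the end of Wdr41. Tbca, a tubulin-folding cofactor upstream of Otp, had a ratio of 0.92 (0.81–1.03), and Pde8b, the cyclic AMP phosphodiesterase beyond Wdr41, had a ratio of 0.999 (0.94–1.07). F2r, which encodes a thrombin receptor, was the one gene of the stretch past 1.5-fold in the other direction, beside 2.24% of all genes. Its ratio was 1.51 (0.92–2.53), with an interval that includes 1. Homer1, at the far upstream end, was at 1.32 (1.20–1.45).

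**Figure D1:**
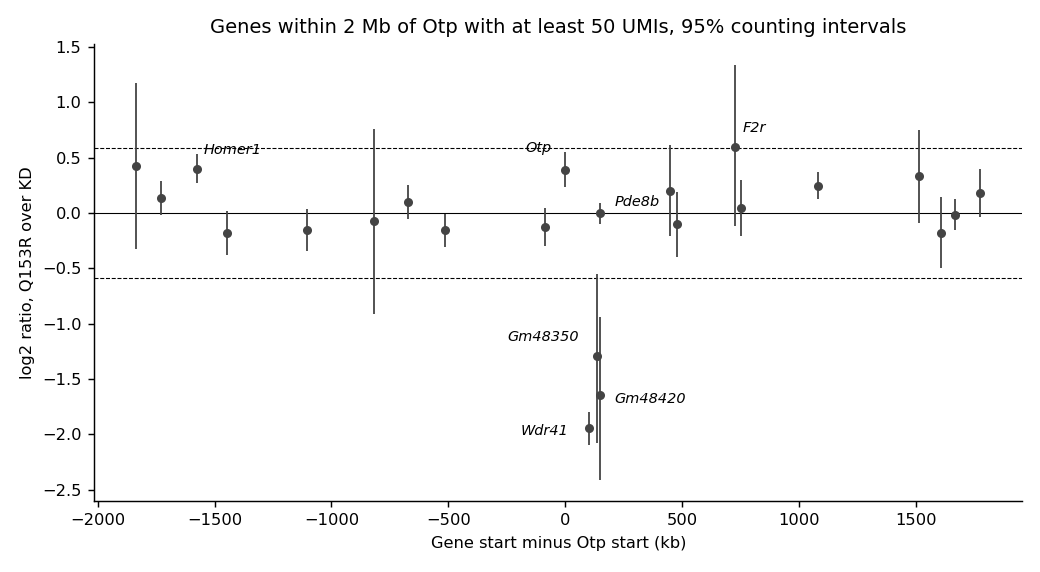
log2 ratio of Q153R over KD (vertical axis) against the distance of each gene start from the Otp start in kb (horizontal axis), for the genes within 2 Mb of Otp that held at least 50 UMIs. Points are ratios over all Sim1 nuclei, bars are 95% counting intervals and dashed lines mark 1.5-fold. Wdr41 and its neighbours Gm48350 and Gm48420 lie far below the line, while Pde8b is at a ratio of 0.999.

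Over all genes the pools were close. Of 7760 genes with at least 200 UMIs in both pools together, 45 were at least 1.5-fold higher in Q153R (0.58% of genes) and 24 at least 1.5-fold lower (0.309%). The median log2 ratio was 0.02 and the central 95% of genes lay between -0.36 and 0.42. Among genes with at least 50 UMIs, where counting error is wider, the shares were 2.24% higher and 2.05% lower. Past 2-fold there were 6 higher and 2 lower genes. The Y-linked genes Uty, Kdm5d, Eif2s3y and Ddx3y were 4 of the 45 and Xist 1 of the 24, in the direction of the different mix of sexes. Leaving these and the mitochondrially encoded genes out left 39 higher and 23 lower genes. Among these, the Ctrl level lay between KD and Q153R for 33 of the 39 and 18 of the 23. It was nearer Q153R on the log scale for 22 of the 39 and 10 of the 23. These genes were chosen for a gap between KD and Q153R, and that choice favours a Ctrl level between them. The counts are therefore a description and not a result about Ctrl. Short genes leaned to Q153R. The median log2 ratio was 0.06 in the shortest 1939 genes, with 20 higher and 7 lower, and -0.02 in the longest 1939, with 6 higher and 10 lower. Sex-linked and mitochondrially encoded genes were kept in these counts. The median gene held 330 UMIs in the shortest group and 1836 in the longest, so counting error was wider in short genes.

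**Figure D2:**
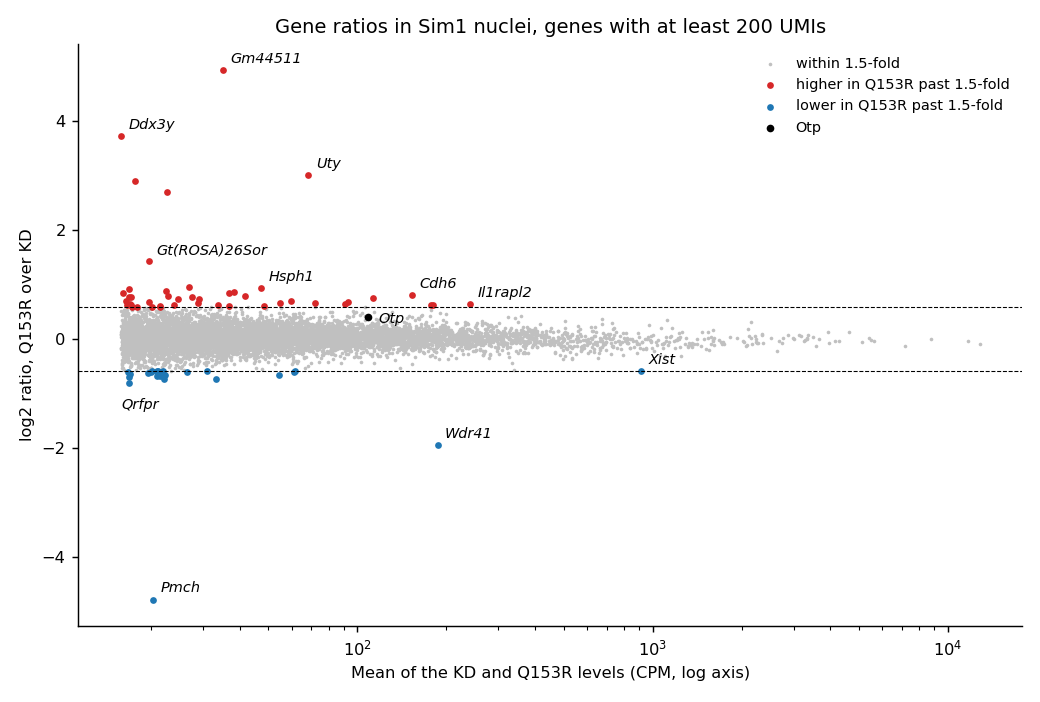
log2 ratio of Q153R over KD (vertical axis) against the mean of both levels in CPM on a log axis (horizontal axis), for genes with at least 200 UMIs. Grey points lie within 1.5-fold, red points are higher and blue points lower in Q153R past that fold, and the black point is Otp. Most genes lie in a narrow band, and Gm44511, Wdr41, Pmch and the Y-linked genes stand far outside it.

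The gene with the widest ratio was Gm44511, an annotated but uncharacterised protein-coding locus on chromosome 6 from 128780285 to 128826315 on the minus strand. Its level was 2.25, 2.24 and 68.1 CPM, a ratio of 30.4 (17.9–56.0). It was seen mainly in the Q153R pool, where 350 of 1169 nuclei had a UMI, against 14 of 899 in KD and 17 of 1180 in Ctrl. Every one of the 16 clusters was higher in Q153R. In the Xist nuclei the levels were 2.31 CPM in KD and 63.7 CPM in Q153R, and in Q153R nuclei with Y-linked UMIs 68.6 CPM. Nuclei without a Sim1 UMI gave 1.29 and 65.8 CPM, so the difference was as large outside the Sim1 nuclei. Pzp, an alpha-2-macroglobulin family gene 253565 bp away, had a ratio of 0.92 (0.74–1.14). Further along, the Hsp90 immunophilin gene Fkbp4, 341608 bp away, was at 1.54 (1.21–1.95) and Nrip2, a nuclear receptor-interacting protein gene 363858 bp away, at 1.61 (1.18–2.23). Both lay past 1.5-fold towards Q153R, and Fkbp4 was at 1.42 in the Xist nuclei. Other genes of this stretch did not share that direction. Itfg2, 355354 bp away, was at 1.07 (0.86–1.33), Tulp3 at 0.97 (0.84–1.12), and Gm10069, 277004 bp away, at 0.81 (0.68–0.96).

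Gt(ROSA)26Sor, the noncoding transcript of the ROSA26 locus, also lies on chromosome 6, from 113067428 to 113077333 on the minus strand. The locus is widely used to hold reporter transgenes, and the labels do not give the site of the Sun1-GFP insertion. The level was 13.6, 10.7 and 28.8 CPM, a ratio of 2.68 (2.01–3.60). It was higher in Q153R in 15 of 16 clusters, and in nuclei without a Sim1 UMI the levels were 12.01 and 31.1 CPM in KD and Q153R. The overlapping gene Thumpd3 had a ratio of 0.85 (0.67–1.08) and Setd5, which begins 32 bp from it, 1.12 (1.06–1.19). The labels write the reporter as Sun-GFP for the floxed mice and as Sun1-GFP for the others. Ctrl, written Sun1-GFP like Q153R, stood at 13.6 CPM, nearer KD than Q153R. A link between the reporter and this level was not tested.

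Several abundant genes were higher in Q153R, with gaps that differed between clusters. Cdh6, a type II cadherin, stood at 158, 112 and 195 CPM, a ratio of 1.75 (1.59–1.92). The gap was widest in cluster 0, at 439 CPM in KD against 1059 CPM in Q153R, while in the Sst cluster 4 it ran the other way, from 466 to 360.2 CPM. Il1rapl2, a synaptic adhesion protein of the interleukin-1 receptor family, stood at 424, 189 and 294 CPM, a ratio of 1.55 (1.44–1.67). KD and Q153R both lay below Ctrl for Il1rapl2. Cluster 13, where Il1rapl2 was highest, held 794 CPM in KD and 1858 CPM in Q153R, and 6 of 16 clusters were higher in KD. Calcr, the calcitonin receptor, stood at 113, 84.2 and 141 CPM, a ratio of 1.68 (1.51–1.87). Again cluster 0 showed the wide gap, 144 against 504 CPM, while cluster 1 was at 235 and 214 CPM. Within clusters the ratios were 1.61 for Cdh6, 1.44 for Il1rapl2 and 1.62 for Calcr, and that of Il1rapl2 lay inside 1.5-fold.

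Further genes were higher in Q153R, most of them at lower levels. Alkal2, a ligand of the receptor tyrosine kinases ALK and LTK, stood at 23.6, 18.4 and 35.4 CPM, a ratio of 1.92 (1.53–2.43). Col12a1, a fibril-associated collagen, stood at 24.9, 11.7 and 21.97 CPM, a ratio of 1.88 (1.40–2.53), or 1.39 in the Xist nuclei. Plod2, which hydroxylates collagen lysines, had a ratio of 1.79 (1.47–2.17). Mrps6, a protein of the mitochondrial ribosome, had a ratio of 1.81 (1.497–2.19), and the myo-inositol transporter gene Slc5a3, which overlaps it on chromosome 16, 1.63 (1.40–1.89). Reads of this overlapping pair may be split between them. Peg10, an imprinted gene of retrotransposon origin, stood at 87.3, 71.3 and 114 CPM, a ratio of 1.60 (1.42–1.80), and Fam107b at 35.5, 30.6 and 52.6 CPM, a ratio of 1.72 (1.43–2.07). In the Xist nuclei Mrps6 was at 1.45, Peg10 at 1.29, Fam107b at 1.46 and Slc5a3 at 1.40, all below 1.5-fold, and Fam107b was at 0.75 with the strictest tag calls. The more abundant of the remaining higher genes, named after their values were seen, were Peli1, a ubiquitin ligase, at 166, 139.9 and 215 CPM, Cdc14b, a phosphatase, at 179.8, 142 and 218 CPM, and Rerg, a small GTPase, at 77.5, 71.5 and 111 CPM. Their ratios were 1.53 (1.41–1.67), 1.54 (1.41–1.68) and 1.55 (1.38–1.75). Peli1 was at 1.38 in the Xist nuclei and 1.46 within clusters, and Cdc14b at 1.41 within clusters, all below 1.5-fold. Hist1h2be, a histone gene, was at 1.79 (1.34–2.43), Hook2, a microtubule linker, at 1.73 (1.35–2.22) and Ctsd, a lysosomal protease, at 1.65 (1.33–2.05), or 1.45 in the Xist nuclei.

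**Figure D3:**
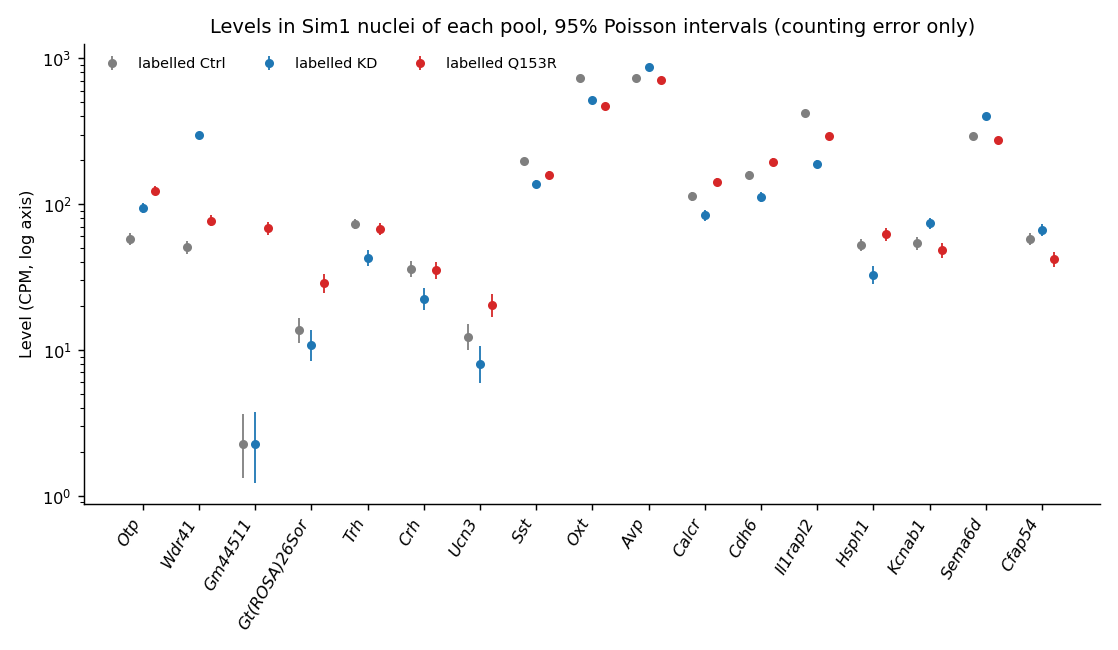
Levels in CPM on a log axis (vertical axis) of 17 genes (horizontal axis) in the Sim1 nuclei labelled Ctrl, KD and Q153R. Points are UMIs summed over the pool and bars are 95% Poisson intervals. KD stands alone for Wdr41 at 297 CPM and Q153R stands alone for Gm44511 at 68.1 CPM, while Trh and Crh are lowest in KD.

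Trh and Crh, genes of releasing hormones, were higher in Q153R than in KD and near Ctrl. Trh, for thyrotropin-releasing hormone, stood at 73.0, 42.8 and 67.2 CPM, a ratio of 1.57 (1.34–1.84). Crh, for corticotropin-releasing hormone, stood at 35.9, 22.4 and 35.3 CPM, a ratio of 1.57 (1.27–1.95). Of 3 listed pituitary-regulating peptide genes with at least 200 UMIs, these 2 lay past 1.5-fold, beside 0.58% of all genes. The third, Sst, for somatostatin, stood at 197, 138 and 158 CPM, a ratio of 1.15 (1.05–1.26). How far the kinds of nuclei present account for the gap was not tested. Within clusters the ratio was 1.35 for Trh and 1.45 for Crh, and in the Xist nuclei 1.38 and 1.54. Trh was high in cluster 14, which also held Ucn3, at 229.8 CPM in KD and 404 CPM in Q153R. In cluster 10 it was at 364 and 295 CPM, and in cluster 9 at 34.7 and 117 CPM. Crh in its own cluster 0 was at 162 and 186 CPM, so the levels within it were closer than the pools. That cluster held 13.1% of KD nuclei and 17.4% of Q153R nuclei. In cluster 3 Crh was at 7.16 and 45.6 CPM, from 4 and 23 UMIs. With the strictest tag calls, which left 89 and 102 nuclei, Crh turned to 0.47.

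Ucn3, which encodes urocortin 3, a ligand of the receptor Crhr2, stood at 12.3, 8.01 and 20.2 CPM, a ratio of 2.52 (1.81–3.57) from 50 and 128 UMIs. The UMIs came from few nuclei, 17 in KD and 41 in Q153R, of which 4 and 10 held at least 5. In cluster 14 the levels were 225 and 393 CPM, a ratio of 1.75. Within clusters the ratio was 1.89. Magnocellular peptides did not share the direction. Oxt stood at 737, 520.5 and 473 CPM, a ratio of 0.91 (0.86–0.96), and in its own cluster 15 at 10383 and 7151 CPM. In the Xist nuclei Oxt was at 1.10. Avp stood at 737, 879 and 711 CPM, a ratio of 0.81 (0.78–0.84), which was 1.01 within clusters, and its own cluster 5 held 10338 and 9655 CPM. Oxt UMIs occurred in 51.7% of KD and 52.0% of Q153R nuclei, while cluster 15 held 2.11% and 2.82%, so a single Oxt UMI says little about the nucleus that holds it.

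Mc4r, the receptor named in the title of the series, was too scarce to compare. It had 11 UMIs in KD and 22 in Q153R, at 3.44, 1.76 and 3.48 CPM, a ratio of 1.97 (0.92–4.505) whose interval includes 1. Cluster 10, the cluster with the highest Mc4r level, held 3.23% of KD nuclei and 5.05% of Q153R nuclei. Sim1, which chose the nuclei, stood at 617, 575 and 666 CPM, a ratio of 1.16 (1.11–1.21). Its partner Arnt2 was at 1.05 (0.98–1.12) and Pou3f2, downstream of both, at 0.85 (0.73–1.001). Of the 6 members of the Otp and Sim1 factor list with at least 200 UMIs, 0 lay past 1.5-fold. Beside 0.58% of all genes higher and 0.309% lower, that 0 is not a result about the list.

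Among receptors for feeding signals, 2 of 22 with at least 200 UMIs lay past 1.5-fold towards Q153R and 1 towards KD, beside 0.58% and 0.309% of all genes. The first were Calcr and the galanin receptor Galr1, at 17.9, 17.2 and 25.9 CPM and a ratio of 1.51 (1.18–1.95), or 1.20 in the Xist nuclei. The one towards KD was Qrfpr, the receptor for the peptide QRFP, at 18.2, 21.5 and 12.2 CPM and a ratio of 0.57 (0.42–0.76). In cluster 1, which Qrfpr led together with Crhr2, Qrfpr stood at 118 and 86.0 CPM in KD and Q153R, and this cluster held 10.1% of KD and 7.61% of Q153R nuclei. Rarer receptors lay on both sides. Npy5r, a neuropeptide Y receptor, was at 2.01 (1.24–3.35), Sstr2, a somatostatin receptor, at 1.59 (1.16–2.19), and Crhr2 at 0.54 (0.31–0.92). Lepr, the leptin receptor, was at 1.59 (0.97–2.64) from 73 UMIs, with an interval that includes 1.

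Of 55 transcription factors with at least 200 UMIs, 1 was higher past 1.5-fold and 1 lower, beside 0.58% and 0.309% of all genes, and their median log2 ratio was -0.05 beside 0.02 over all genes. The higher one was the activity-regulated factor Npas4, and the lower was Bnc2, a zinc-finger factor, at 14.7, 23.7 and 15.3 CPM. Its ratio was 0.65 (0.50–0.84), 0.75 within clusters, 0.82 in the Xist nuclei and 1.15 without nuclei that held glial UMIs. Among rarer factors, Meis1, a homeobox factor, was at 1.99, 8.66 and 1.58 CPM, a ratio of 0.18 (0.083–0.36) from 64 UMIs. St18 was at 6.76, 8.34 and 2.06 CPM, a ratio of 0.25 (0.12–0.46). Of its 65 UMIs in KD and Q153R, 30 came from 1 nucleus, and without likely doublets the St18 ratio was 0.83. Sox6 was at 0.52 (0.35–0.75), but at 1.86 without likely doublets and 2.33 without nuclei that held glial UMIs.

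Heat shock proteins fold other proteins, and their genes are driven by Hsf1 through tandem GAA blocks in the promoter, called heat shock elements. Such letters were looked for in the RefSeq promoter windows (250 bases before to 50 after the start, GRCm38.p6) as GAANNTTC or TTCNNGAA, on both strands. Of the 20 heat shock genes with at least 50 UMIs, 14 had a window, 22 windows in all, and 7 of the 22 held the motif (31.8%), against 15.1% of all 32851 windows. The longer form GAANNTTCNNGAA, read on both strands, was held by 5 of the 22 (22.7%), from Hsph1, Hspd1, Hspe1 and Chordc1, against 0.603% of all windows. Windows of 1 gene overlap, and Hspd1 and Hspe1 share a block, so these are not separate matches. A match is a description of letters and not a site shown to be used. The shorter form alone was held by 1 of 3 windows of Dnaja1, with a ratio of 1.28, and 1 of 2 of Dnajb4, at 0.91. Dnajb1, at 1.78, held no match in 2 windows, and Stip1, at 1.49, none in 1. The upstream 250 bases of Hsph1 and Hspe1 are printed. Hsph1 is the heat shock gene past 1.5-fold with at least 200 UMIs, and Hspe1, inside that fold, holds the longer form before its start. The motif is in capitals.
Hsph1, chr5:149636337-149636586, minus strand: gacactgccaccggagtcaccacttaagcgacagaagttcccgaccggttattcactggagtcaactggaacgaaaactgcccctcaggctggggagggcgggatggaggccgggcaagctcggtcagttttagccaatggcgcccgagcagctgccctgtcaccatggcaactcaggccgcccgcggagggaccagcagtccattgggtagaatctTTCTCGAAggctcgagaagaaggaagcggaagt
Hspe1, chr1:55087898-55088147, plus strand: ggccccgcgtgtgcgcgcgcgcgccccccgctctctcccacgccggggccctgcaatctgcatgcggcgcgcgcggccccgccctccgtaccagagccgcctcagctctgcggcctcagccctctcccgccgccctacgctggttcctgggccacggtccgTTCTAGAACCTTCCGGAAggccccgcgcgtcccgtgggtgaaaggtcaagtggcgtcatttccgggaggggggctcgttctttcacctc
Hsph1 holds 3 matches in its window, of which 2 lie past the start, and Hspe1 holds 3 overlapping ones that make up its block in capitals. Hspd1, its partner in the mitochondrial chaperonin, is transcribed the other way from the same region and shares that block, with a ratio of 1.16 (0.93–1.45).

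Hsph1, the large Hsp70 partner Hsp110, was the one heat shock gene with at least 200 UMIs past 1.5-fold, of 18, beside 0.58% of all genes. Its level was 52.3, 32.5 and 62.1 CPM, a ratio of 1.91 (1.61–2.27), so KD was low and Q153R near Ctrl. It was higher in Q153R in 15 of 16 clusters and stood at 1.92 within clusters and 1.99 in the Xist nuclei. Nuclei without a Sim1 UMI gave 27.0 CPM in KD and 68.9 CPM in Q153R. The list as a whole had a median log2 ratio of 0.23, or 0.12 in the Xist nuclei, with 14 of 18 above 1, beside 4313 of 7760 over all genes. The members named next lay inside 1.5-fold except Dnajb1. Stip1, which links Hsp70 to Hsp90, was at 46.4, 39.4 and 58.7 CPM, a ratio of 1.49 (1.26–1.75). Chordc1, an Hsp90 partner, was at 1.39 (1.25–1.56), the chaperonin subunit Hspe1 at 1.41 (1.12–1.78) and Dnaja1, an Hsp40, at 1.28 (1.11–1.47). Dnajb1, also an Hsp40, was at 1.78 (1.22–2.62) from 126 UMIs, but at 1.16 in the Xist nuclei. Hspa8, at 0.89 (0.76–1.04), and Hsp90aa1, at 0.90 (0.78–1.04), lay below 1. So did the Hsp40 genes Dnajb4, at 0.91 (0.81–1.03), and Dnajc5, at 0.99 (0.88–1.12). Each of these intervals includes 1. The related genes Hsp90ab1 and Hspa4 were at 1.01 and 1.10. Outside the list, Cacybp, which binds Hsp90 and S100 proteins, was at 21.7, 15.9 and 29.2 CPM, a ratio of 1.84 (1.44–2.38).

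Genes switched on by neuronal firing leaned towards Q153R in the pools but not in the Xist nuclei. Of 14 such genes with at least 200 UMIs, 1 lay past 1.5-fold, and of 27 with at least 50 UMIs, 6 were higher and 0 lower, beside 2.24% and 2.05% of all genes. The median log2 ratio was 0.24 over the 14, 0.12 within clusters and 0.01 in the Xist nuclei. Npas4, an activity-dependent transcription factor, stood at 28.2, 26.8 and 40.9 CPM, a ratio of 1.53 (1.25–1.87) and 1.20 in the Xist nuclei. Arc, a synaptic capsid-like protein, was at 3.84, 3.37 and 7.90 CPM, a ratio of 2.35 (1.38–4.12), and Klf4 at 2.08 (1.39–3.14), both from few UMIs. Sik1, a kinase induced by cyclic AMP, was at 1.64 (1.17–2.32) and 1.13 in the Xist nuclei, and Per1, a clock gene with the same kind of induction, at 1.505 (1.12–2.03). Fos was at 10.6, 12.8 and 18.7 CPM, a ratio of 1.45 (1.09–1.96). Homer1, a postsynaptic scaffold, was at 1.32 (1.20–1.45), and Pcsk1, the prohormone convertase, at 1.34 (1.22–1.47). Bdnf, Vgf and Jund lay below 1, at 0.93, 0.93 and 0.88. How far sex, cluster mix and allele each account for this was not tested.

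Transcripts of the mitochondrial genome were higher in Q153R than in KD and near Ctrl. Of the 8 with at least 50 UMIs, 4 were higher past 1.5-fold, beside 2.24% of all genes, and all 8 lay above 1. mt-Co3, a subunit of cytochrome oxidase, was at 30.9, 18.6 and 30.8 CPM, a ratio of 1.66 (1.31–2.10), and mt-Co2 at 1.71 (1.29–2.29). Both were below 1.5-fold in the Xist nuclei, at 1.45 and 1.43, with each nucleus weighted equally, at 1.25 and 1.20, and after thinning, at 1.31 and 1.15. mt-Nd1 was at 1.14 (0.86–1.502) and mt-Co1 at 1.12 (0.79–1.60). Summed over 13 genes the ratio was 1.45 (1.31–1.61), with Ctrl at the level of Q153R. The material was sorted nuclei, so these UMIs came from outside the nucleus. How far the preparation of each pool set their level was not tested. The 51 nuclear genes of the respiratory chain with at least 200 UMIs had a median log2 ratio of 0.01, beside 0.02 over all genes. Of these, 0 lay past 1.5-fold. Beside 0.58% of all genes higher and 0.309% lower, that 0 is not a result about the list.

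**Figure D4:**
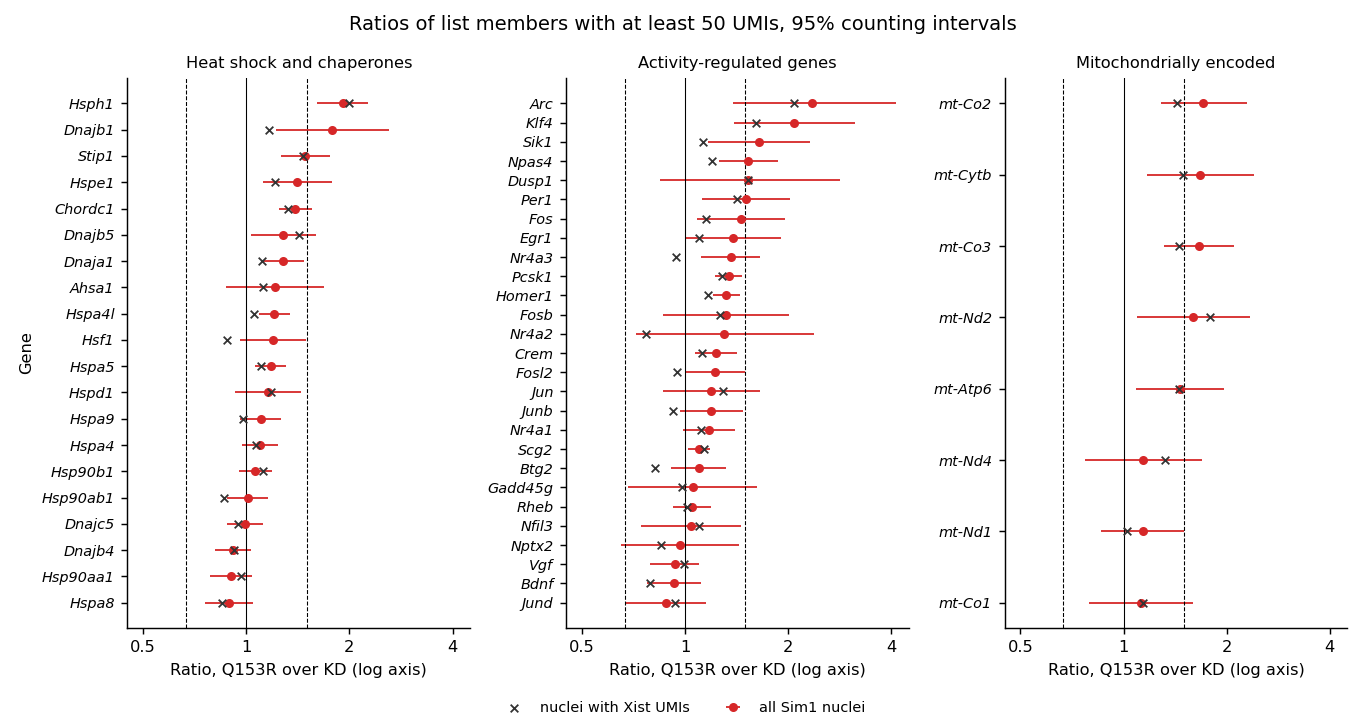
Ratio of Q153R over KD on a log axis (horizontal axis) for each gene (vertical axis) of the heat shock, activity-regulated and mitochondrially encoded lists with at least 50 UMIs. Red points and bars are ratios and 95% counting intervals over all Sim1 nuclei, crosses are ratios in the Xist nuclei and dashed lines mark 1.5-fold. Hsph1 keeps its ratio in the Xist nuclei, whereas Npas4, Sik1 and Dnajb1 move towards 1.

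Genes lower in Q153R were mostly of modest level. Cfap54, a component of motile cilia, stood at 57.4, 66.7 and 41.9 CPM, a ratio of 0.63 (0.54–0.73), and was lower in 15 of 16 clusters. Kcnab1, an accessory subunit of voltage-gated potassium channels, stood at 53.8, 73.7 and 48.2 CPM, a ratio of 0.65 (0.56–0.76). It was the one gene past 1.5-fold among 41 potassium channel genes with at least 200 UMIs, beside 0.309% of all genes that were lower. Myo16, an unconventional myosin, was at 0.66 (0.57–0.77), Zswim3 at 0.60 (0.47–0.77) and Trub2, a pseudouridine synthase, at 0.63 (0.49–0.80). Sema6d, a transmembrane semaphorin, was more abundant, at 296, 405 and 274 CPM, and its ratio of 0.68 (0.64–0.72) lay just inside 1.5-fold. For each of these genes KD was above both other pools. In the Xist nuclei Kcnab1 was at 0.72, Myo16 at 0.72 and Trub2 at 0.73, each inside 1.5-fold, while Cfap54 was at 0.63 and Zswim3 at 0.59. Of the remaining lower genes, Atp10a, a lipid flippase, was at 0.66 (0.54–0.82), Vgll4, a cofactor of TEAD factors, at 0.62 (0.48–0.81), and Fyb2 at 0.62 (0.48–0.80), or 0.90 in the Xist nuclei.

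Marker lists of other cells differed between the pools in both directions. Over the astrocyte list, 12 genes summed to 82.9, 114 and 74.8 CPM, a ratio of 0.65 (0.58–0.73), and the 12 oligodendrocyte genes to 66.8, 107 and 63.7 CPM, a ratio of 0.60 (0.53–0.68). No gene of either list was at 0 in KD, while 1 of each was at 0 in Q153R and 2 of each in Ctrl. Ependymal and tanycyte markers ran the other way, at 20.8, 10.3 and 16.9 CPM, a ratio of 1.65 (1.20–2.28). Only 1 of these 10 genes had at least 50 UMIs, and it lay past 1.5-fold towards Q153R. Markers of microglia and of oligodendrocyte precursors were both at 0.93, those of thalamus and amygdala at 0.99 and GABAergic ones at 0.87. Markers of the arcuate and lateral hypothalamus summed to 46.2, 88.2 and 47.9 CPM, of which Pmch alone was 39.3 CPM in KD. Slc4a4, a bicarbonate transporter of astrocytes, was at 26.4, 41.5 and 24.8 CPM, a ratio of 0.60 (0.49–0.73), but at 1.23 without likely doublets. Slc1a3, a glial glutamate transporter, was at 2.25, 10.1 and 2.69 CPM, a ratio of 0.27 (0.15–0.46), still 0.45 without them. Slc1a3 and Slc4a4 were also among the leading genes of the Avp cluster 5, which held 7.56% of KD and 6.16% of Q153R nuclei. Igf1 was at 0.44 (0.28–0.69) and turned to 1.17 without likely doublets. Pmch, which encodes melanin-concentrating hormone of the lateral hypothalamus, was at 1.72, 39.3 and 1.42 CPM. Its 245 KD UMIs came from 16 nuclei, of which 4 held at least 5, and without likely doublets the ratio was 0.63. The part of glia and doublets in the other ratios was not tested gene by gene beyond these values.

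Of 36 gene lists on neuronal and cellular function, 22 had 0 of their members with at least 200 UMIs past 1.5-fold, 591 members in all. With 0.58% of all genes higher and 0.309% lower, a count of 0 in a list of this size is not a result about the list. Their medians ran from -0.22 to 0.10 on the log2 scale, and 19 of the 22 lay within 0.1 of 0. They included glutamate receptors, with 20 genes and a median of -0.02, GABA and glycine receptors, with 18 and -0.12, and sodium, calcium and HCN channels, with 43 and 0.00. Synaptic vesicle genes numbered 53 at -0.06, cytosolic ribosomal proteins 44 at -0.03, proteasome subunits 21 at 0.02 and chromatin regulators 64 at 0.03. Peptide granule and processing genes numbered 27 at 0.04, and the melanocortin and obesity list 34 at -0.01. Lists that held a called gene could also centre near 0, such as synaptic adhesion, with 78 genes and a median of 0.00, cadherins, with 29 and -0.02, and potassium channels, with 41 and -0.07. A pool of 1 sample per side cannot show that these pathways were equal.

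The clusters of Sim1 nuclei were filled unevenly. They were built without the listed and differing genes. Cluster 11, led by Nfib, Nfia and Pparg, held 3.45% of KD and 1.54% of Q153R nuclei, an odds ratio of 0.44 (0.23–0.81). Cluster 6, led by Aox3 and Etv1, held 7.79% and 5.47%, an odds ratio of 0.69 (0.48–0.99). Higher in Q153R were cluster 0, which held Crh and Sv2c, at 1.39 (1.08–1.79), and cluster 2, with Zic4 and Col15a1, at 1.43 (1.05–1.96). The counting intervals of the other 12 clusters included 1. No allowance was made for the number of clusters, and the sort and the dissection can set such shares.

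**Figure D5:**
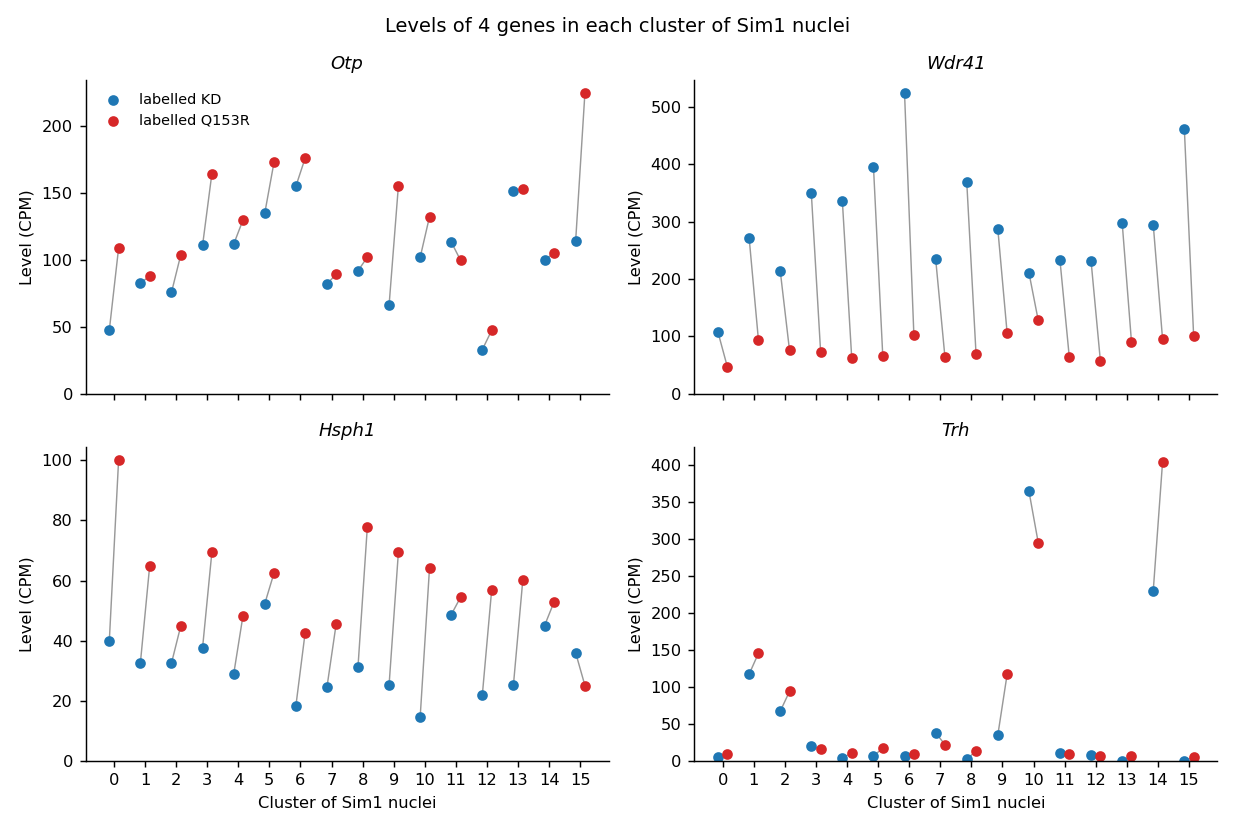
Levels in CPM (vertical axis, from 0) of Otp, Wdr41, Hsph1 and Trh in each of the 16 clusters of Sim1 nuclei (horizontal axis), for nuclei labelled KD in blue and Q153R in red, joined within a cluster. Wdr41 is lower in Q153R in every cluster, Otp and Hsph1 are higher in 15 of 16, and Trh is high in few clusters, with the widest gap in cluster 14, at 229.8 and 404 CPM.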

How the data were processed

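The deposited matrix holds raw UMI counts, unnormalized, for 31053 genes and 3 hashtags in 6173 barcodes of 1 library. The submitters' processing notes name Cell Ranger 6.0.0 and mm10, while the matrix header, per the file headers, names 7.0.0; how introns were counted and cells called is not given in the sources used here. Of 6157 barcodes with at least 500 genes, 4904 had 1 positive hashtag, 1124 more than 1 and 129 none, so some doublets within a pool remain. UMIs were summed per pool (7547327 in Ctrl, 6238417 in KD and 6325540 in Q153R) and divided by all gene UMIs. Ratios carry exact conditional binomial intervals, levels exact Poisson intervals and shares Clopper-Pearson intervals, all at 95%. Genes with at least 200 UMIs over both pools were called past 1.5-fold. The sexes were read from at least 3 Xist or 2 Y-linked UMIs. Clusters came from 2000 variable genes, 30 components and 15 neighbours (scikit-learn 1.9.0, leidenalg 0.10.2), without the listed and called genes, and are numbered, not typed. Ratios within clusters are Mantel-Haenszel ratios. Likely doublets were the 583 nuclei with 1 tag whose 50 nearest neighbours most often carried more than 1 tag. Coordinates follow GENCODE vM21, which held 30934 of the gene IDs.

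The text names Otp, Wdr41, Sim1, Mc4r and 6 peptides, the 12 highest and 12 lowest ratios after adding 5 CPM with no nucleus above 10% of the UMIs, listed genes past 1.5-fold, genes within 2 Mb of Otp, and further genes chosen after their values were seen. Groups, lists and members were chosen with earlier results of these data known. Some genes that the rule names are not reported here. The scripts were tested on simulated data. Alternatives changed the Sim1 minimum, the tags, the weighting, thinning, scaling, sex, doublets, GABAergic and glial UMIs, the UMI minimum and the fold.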

Additional observations from a re-analysis of the deposited data

How the results depend on the processing

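As reported, 45 genes were higher and 24 lower in Q153R past 1.5-fold. The higher count was 75 with each nucleus weighted equally, 26 with nuclei thinned to 2000 UMIs, 23 with stricter tag calls, 272 at a minimum of 50 UMIs and 6 at 2-fold. The lower count was 74 over all nuclei with 1 tag, 13 after thinning, 249 at a minimum of 50 UMIs and 2 at 2-fold. Otp, at 1.31, moved to 1.47 over all nuclei with 1 tag, to 1.52 in the Xist nuclei and to 0.999 with stricter tag calls. Wdr41, at 0.26, was 0.301 over all nuclei with 1 tag. With stricter tag calls, which left 89 and 102 nuclei, the ratio of Fam107b turned to 0.750, Crh to 0.468, Slc4a4 to 1.01, Vgll4 to 1.55 and Slc5a3 to 0.9999. In the Xist nuclei Xist turned to 1.10 and Hpse2 to 0.854. Without likely doublets Slc4a4 turned to 1.23, Sox6 to 1.86 and Igf1 to 1.17. Igf1 was 1.06 without nuclei that held GABAergic UMIs. Thinning turned Tacr3 to 1.10, Zic2 to 0.824 and Nog to 0.785. Without nuclei that held glial UMIs Bnc2 turned to 1.15 and Sox6 to 2.33. The cause of these turns was not tested. Of the 69 genes past 1.5-fold, 61 stayed on their side of 1 with stricter tag calls, 63 in the Xist nuclei and 67 each without likely doublets or glial UMIs, and all 69 under the other alternatives. Fewer stayed past 1.5-fold with at least 200 UMIs left: 3 with stricter tag calls, 16 after thinning, 17 in the Xist nuclei, 27 without glial UMIs and 48 within clusters. A gene that fell below 200 UMIs dropped out of this count whatever its ratio. Of the 7760 genes, 1324 kept 200 UMIs with stricter tag calls, 3705 after thinning, 6108 in the Xist nuclei and 5788 without glial UMIs. Genes with fewer than 20 UMIs under an alternative were given no value. The alternatives without glial UMIs and with the tag at 1.5 times its threshold were chosen after seeing the data. The latter left 49 of the 69 past 1.5-fold with at least 200 UMIs. No paired analysis was possible because each side is 1 pool. With 1 pool a side, the difference between mice is unknown, and rare receptors such as Mc4r lie below what this depth can compare.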

Other observations

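Nuclei with 1 tag and no Sim1 UMI numbered 448 in KD and 422 in Q153R. In these nuclei the Otp level was 27.0 and 67.0 CPM, in that order, and Q153R over KD was 2.48 (1.80–3.44), wider than in the Sim1 nuclei. Calcr stood at 51.0 and 138 CPM, a ratio of 2.70 (2.15–3.40), and Trh at 24.02 and 67.7 CPM, a ratio of 2.82 (2.03–3.96). Gad1, which makes GABA, stood at 53.2 and 32.3 CPM, a ratio of 0.61 (0.43–0.84), so these nuclei held less Gad1 transcript in Q153R. Other GABAergic genes were not compared in these nuclei. The median depth of these nuclei was 4793.5 UMIs in KD and 3592.5 UMIs in Q153R. The share of nuclei with 1 tag that held a Sim1 UMI was 66.7% (64.2–69.3%) in KD and 73.5% (71.2–75.6%) in Q153R.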
